A study of Rattus norvegicus with 12 samples.

Results

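The Gadd45 genes and the p53 target genes Mdm2, Cdkn1a and Ccng1 were followed in cultured rat retinal ganglion cells, the neurons that carry the output of the retina to the brain. The 6 genes were represented by 9 of the 31042 probe sets of the deposited table, namely every probe set whose single annotated symbol was one of the 6, among 14217 genes so annotated. Gadd45a, Gadd45b, Gadd45g and Ccng1 had 1 probe set each, Cdkn1a had 2 and Mdm2 had 3. The genes had been chosen by their signal with ET-3 against untreated cells, in which Gadd45a and Gadd45b moved in opposite directions, so the ET-3 values of the 6 genes are a description. No p is given for them, and nothing rests on whether they passed.

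The cells came from Sprague-Dawley pups on postnatal days 4 to 6, were isolated by immunopanning for Thy-1.1 and were grown for 7 days in serum-free medium with neurotrophic factors and forskolin. After a night without the factors cultures received one of the endothelin peptides ET-1, ET-2 and ET-3 at 100 nM for 24 h. Endothelins are vasoactive peptides that act on the endothelin A and B receptors. The control cultures are called untreated in the titles of the labels and vehicle-treated in their descriptions. Each of the 4 groups had 3 Affymetrix Rat Genome 230 2.0 arrays, labelled as biological replicates 1 to 3.

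Gadd45 proteins are small stress proteins without enzyme activity of their own. They bind other proteins, among them the kinase Map3k4 upstream of p38 and JNK, the Cdk1 and cyclin B1 complex, and the replication clamp PCNA. Gadd45a is a classical target of p53, the transcription factor that is stabilised after DNA damage, whereas Gadd45b is known as an early target of NF-kB and TGF-beta. Mdm2 is the ubiquitin ligase that degrades p53, Cdkn1a encodes p21, an inhibitor of cyclin-dependent kinases, and Ccng1 encodes cyclin G1, which recruits a phosphatase to Mdm2. All 3 are induced by p53.

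RefSeq promoter windows, from 250 bases before to 50 bases after the annotated start, were at hand for all 6 genes in the GRCr8 build. Only the first listed window of each gene was read, so any other annotated start was not searched. The windows of Gadd45a and Gadd45b are shown because the 2 genes moved in opposite directions, and that of Cdkn1a as an example with a p53 half-site. Capitals mark every match, on either strand, to the octamer ATGCAAAT, the CCAAT box, the GC box GGGCGG, the E-box CACGTG or the p53 half-site.
Gadd45a, chr4:97486750-97487049, minus strand: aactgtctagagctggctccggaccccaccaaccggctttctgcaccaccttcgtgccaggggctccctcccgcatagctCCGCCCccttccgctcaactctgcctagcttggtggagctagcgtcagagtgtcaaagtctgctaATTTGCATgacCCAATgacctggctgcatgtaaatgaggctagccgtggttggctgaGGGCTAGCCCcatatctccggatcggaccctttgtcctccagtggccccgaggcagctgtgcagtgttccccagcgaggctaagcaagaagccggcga
Gadd45b, chr7:9430669-9430968, minus strand: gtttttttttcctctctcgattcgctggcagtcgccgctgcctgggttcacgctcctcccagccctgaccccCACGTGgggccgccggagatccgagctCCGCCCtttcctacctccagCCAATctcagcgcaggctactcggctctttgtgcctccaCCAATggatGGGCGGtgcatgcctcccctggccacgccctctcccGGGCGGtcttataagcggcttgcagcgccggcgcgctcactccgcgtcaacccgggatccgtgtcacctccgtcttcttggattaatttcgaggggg
Cdkn1a, chr20:7150682-7150981, plus strand: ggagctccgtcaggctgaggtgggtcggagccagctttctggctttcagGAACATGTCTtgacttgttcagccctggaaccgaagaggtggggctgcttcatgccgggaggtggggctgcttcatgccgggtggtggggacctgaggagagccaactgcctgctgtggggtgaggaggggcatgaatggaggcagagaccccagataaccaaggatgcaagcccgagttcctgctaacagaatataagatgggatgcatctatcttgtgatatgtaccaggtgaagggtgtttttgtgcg

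The Gadd45a window held the octamer on the reverse strand (ATTTGCAT, first base at -105 from the start) beside a CCAAT box at -94. The octamer occurred in 1.78% of 33469 promoter windows and the CCAAT box in 37.5%. Its p53 half-site, GGGCTAGCCC, lay at -48, and that of Cdkn1a, GAACATGTCT, at -201, while 7.98% of all windows held one. The Gadd45b window held neither octamer nor half-site but had CCAAT boxes at -131 and -92, GC boxes at -151, -83 and -47 and an E-box at -178; 33.1% of windows held a GC box and 6.42% an E-box. Gadd45g also had the octamer (-124) and a CCAAT box (-99), and Ccng1 a half-site at -232. The Mdm2 window held no half-site, but a CCAAT box at -105 and GC boxes at -131 and -120. The AP-1 site TGANTCA, the CRE TGACGTCA and the TATA box TATAAA were searched as well. They had no match in the 3 windows shown and occurred in 7.33%, 1.83% and 14.2% of windows. These matches describe letters and are not evidence of binding.

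The 12 arrays carried their strongest differences between replicate numbers. Median signal per array ran from 139.0 to 141.7 in replicate 1, 136.0 to 150.3 in replicate 2 and 163.5 to 181.0 in replicate 3, while the trimmed mean stayed between 496.7 and 498.3. All 14 of the matched retinal ganglion cell markers passed the filter on low signal, and Sncg, Stmn2 and Slc17a6 lay in the top 1% of probe sets. Of 6 matched endothelial markers, Pecam1, Tek, Vwf and Cldn5 fell below the filter. The other two passed: Kdr read 136.3 to 546.2 and fell by 0.74 on the log2 scale with ET-2 (adjusted p = 0.0481 by limma, in the fit described next), and Esam read 73.7 to 320.0. The summed signal of 10 fibroblast, pericyte and smooth muscle markers was 46934 to 55688 in the 4 arrays of replicate 1, against 14759 to 18916 in replicate 2 and 12560 to 16060 in replicate 3. In RNA from whole cultures, fewer cells of a type and less RNA per cell cannot be told apart. The fit therefore took the replicate number as a block: limma on log2 signal, two-sided, with Benjamini-Hochberg adjustment over the 15521 probe sets whose mean log2 signal reached the median of all probe sets. All 9 probe sets of the 6 genes passed this filter. Without the block none of the 15521 probe sets passed an adjusted p of 0.05 with any endothelin (limma; 237, 223 and 297 had an unadjusted p under 0.05 with ET-1, ET-2 and ET-3).

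Gadd45a had a slightly lower signal in the endothelin arrays. Its signal was 2230.4, 2013 and 2357 in replicates 1 to 3 with ET-1, 2042, 2096 and 2257 with ET-2, and 1876, 2028 and 2230.0 with ET-3, against 2281, 2338 and 2714 in untreated cells. Each of the 9 endothelin arrays lay below the untreated array of its own replicate number, as did 8.05% of the tested probe sets. The ET-2 and ET-3 arrays lay entirely below the untreated ones, which held for 2.93% and 3.03% of the tested probe sets, while the ET-1 arrays overlapped them. The genes were chosen on the ET-3 and untreated arrays, so these counts and shares are a description and no test. In order of mean log2 signal the groups ran untreated, ET-1, ET-2 and ET-3, and the 3 endothelin groups overlapped each other.

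Gadd45b ran the other way. It read 586.4, 580.3 and 605.4 with ET-1, 568.9, 626.4 and 467.4 with ET-2, and 581.7, 709.7 and 612.1 with ET-3, against 465.0, 508.8 and 449.9 in untreated cells. All 9 endothelin arrays stood above the untreated array of their number, as did 5.59% of the tested probe sets. The ET-1 and ET-3 arrays were entirely above the untreated ones (2.25% and 2.54% of the tested probe sets), and with ET-2 replicate 3 fell within their range. As for Gadd45a, these counts and shares are a description and no test. By mean log2 signal the order was ET-3, ET-1, ET-2 and untreated, with overlap between the endothelin groups.

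Gadd45g, the remaining family member, showed no separation of the groups. Its signal was 741.6, 982.9 and 688.1 with ET-1, 790.9, 957.8 and 937.7 with ET-2, and 685.8, 935.0 and 875.3 with ET-3, against 728.6, 882.6 and 747.7 in untreated cells. All 4 groups overlapped, and replicate 2 was the highest array in each.

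**Figure D1:**
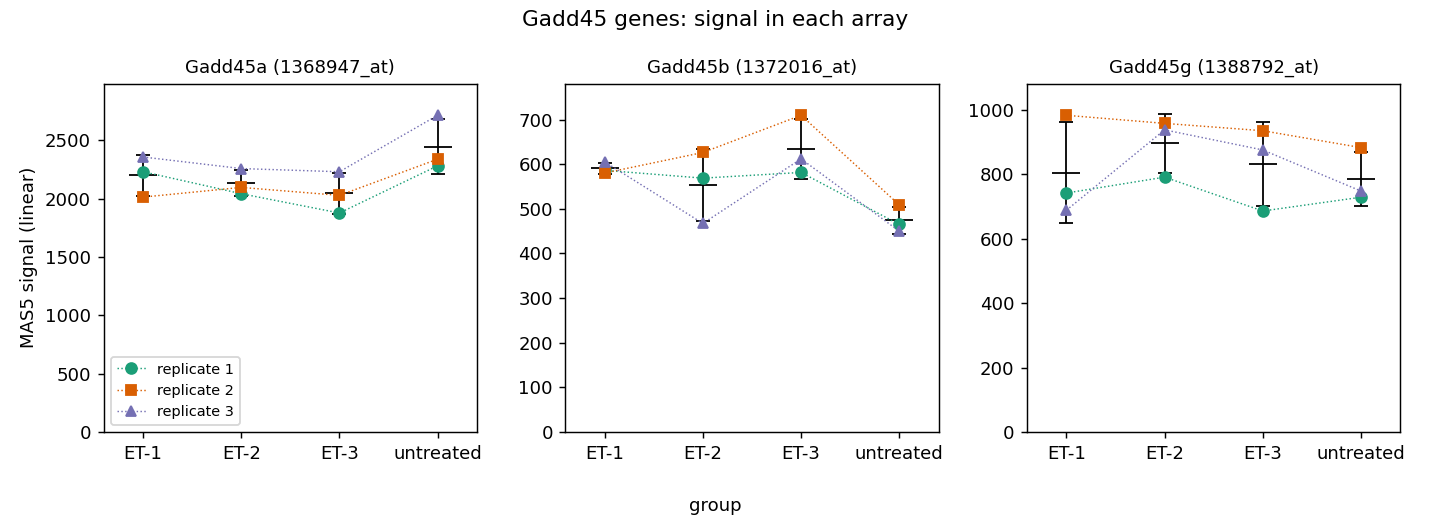
MAS5 signal on a linear axis from 0 for the 3 Gadd45 genes in the ET-1, ET-2, ET-3 and untreated arrays. Points are arrays, dotted lines join arrays of 1 replicate number, and black bars are the mean and SD of 3 arrays. Under every replicate number the untreated array is the highest of its line for Gadd45a and the lowest for Gadd45b.

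With ET-1 the log2 signal of Gadd45a differed from untreated by -0.15 ± 0.06 (SE, adjusted p = 0.251 by limma with the replicate block). Each group had 3 arrays, and the SE is that of the fit over all 12 arrays. The difference is -9.92%, with a 95% interval from -17.7 to -1.45%. Gadd45b differed by 0.32 ± 0.10 (24.6%, interval 7.07 to 45.1%; adjusted p = 0.155 by limma). Neither passed the threshold after adjustment. None of the 9 probe sets was called with ET-1, against 1.73% of all tested (limma; 2 of the 9 had an unadjusted p under 0.05).

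With ET-2 the values were -0.19 ± 0.06 for Gadd45a (-12.6%, interval -20.1 to -4.39%; adjusted p = 0.140 by limma) and 0.22 ± 0.10 for Gadd45b (16.1%, interval -0.258 to 35.1%; adjusted p = 0.313). Again none of the 9 was called, against 1.6% of all tested (limma; 1 of the 9 had an unadjusted p under 0.05). Centring each array on its median gave Gadd45a a call with ET-2, at -0.29 with an adjusted p of 0.0332 by limma, and the adjusted p over all alternatives ran from 0.0332 to 0.9998. With that centring 1218 of the 15521 probe sets were called with ET-2, 1025 of them lower, against 249 and 50 without it. The Gadd45a call is therefore not particular to this gene. The same centring took the log2 change of Gadd45b with ET-2 down to 0.12. These comparisons share their untreated arrays with each other and with the ET-3 comparison on which the genes were chosen, so they do not stand apart from it.

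With ET-3, where the genes were chosen, Gadd45a stood at -0.26 ± 0.06 and Gadd45b at 0.42 ± 0.10 in log2 signal (SE of the fit), or -16.3% and 33.4%. They were the 2 of the 9 probe sets that passed, beside 2.64% of all tested (2.13% higher and 0.509% lower), and nothing is read from that count. The Gadd45a call was kept in 3 of 17 alternative settings and that of Gadd45b in 0 of 16. Leaving out any array of the 2 groups or any replicate number ended both calls, while the log2 difference stayed between -0.29 and -0.22 for Gadd45a and between 0.38 and 0.48 for Gadd45b.

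Rescaling an array does not change the ratio of 2 genes within it, so the log2 ratio of Gadd45b over Gadd45a was also read in each array. Relative to the untreated array of the same number it moved by 0.37, 0.41 and 0.63 with ET-1, by 0.45, 0.46 and 0.32 with ET-2 and by 0.60, 0.69 and 0.73 with ET-3. The means were 0.47 ± 0.14, 0.41 ± 0.08 and 0.67 ± 0.06 (SD, n = 3 pairs). A ratio shows that the 2 genes changed unequally, and its direction with ET-3 follows from how the genes were chosen. The changes with ET-1 and ET-2 are taken from the same untreated arrays, so their direction does not stand apart from that choice.

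At equal dose and time the endothelins were also set against each other. ET-2 against ET-1 shares no array with the ET-3 against untreated comparison. None of the 9 probe sets, nor any of the 15521 (0%), was called there (limma; 0 of the 9 and 574 of all had an unadjusted p under 0.05). Gadd45a differed by -0.04 (95% interval -0.17 to 0.09) and Gadd45b by -0.10 (-0.32 to 0.12) on the log2 scale, and the differences of all 9 lay between -0.24 and 0.17. ET-3 differed from ET-1 by -0.11 ± 0.06 for Gadd45a and 0.10 ± 0.10 for Gadd45b, and from ET-2 by -0.06 ± 0.06 and 0.20 ± 0.10 (SE). These intervals do not show that the peptides act alike.

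**Figure D2:**
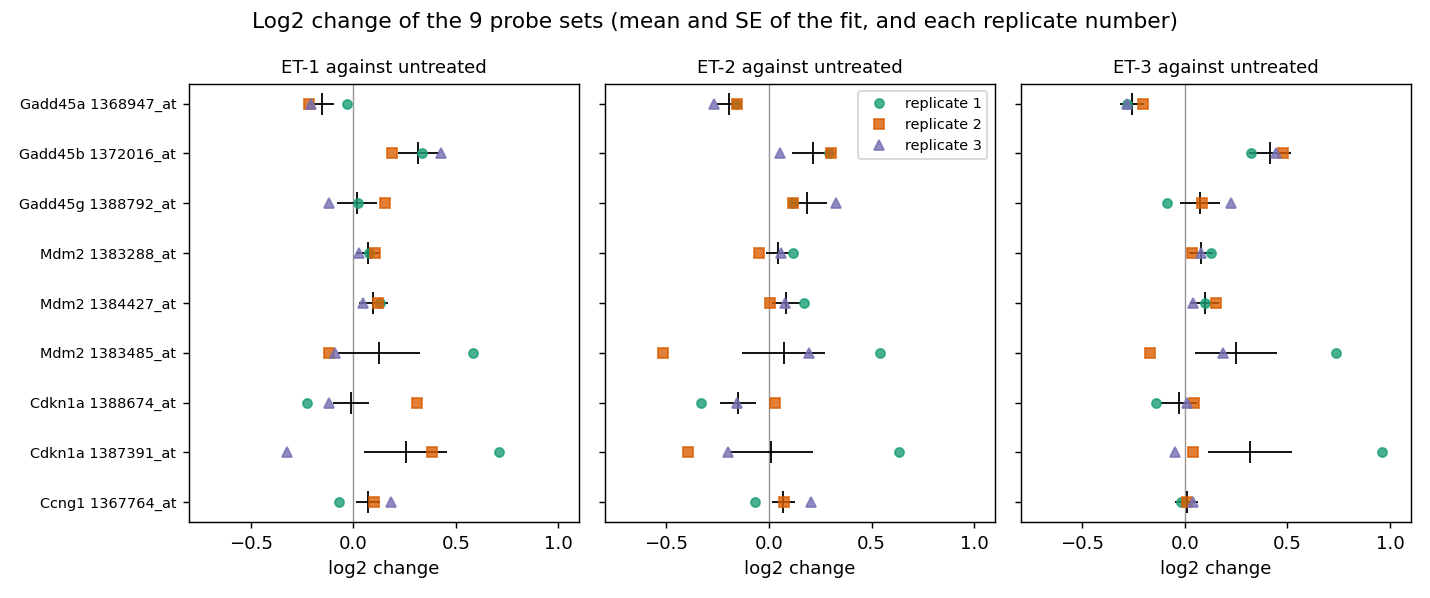
Log2 change against untreated of the 9 probe sets with ET-1, ET-2 and ET-3. Black ticks and bars are the change and SE of the fit with the replicate block, and coloured points are the differences under replicates 1, 2 and 3. The points of Gadd45a lie below 0 and those of Gadd45b above 0 in all 3 panels, while the dimmer Cdkn1a and the dimmest Mdm2 probe set scatter most, with replicate 1 highest.

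None of the probe sets of Gadd45g, Mdm2, Cdkn1a and Ccng1 passed with ET-1 or ET-2. Of all tested probe sets 1.73% and 1.6% did, so a count of 0 is near the background. Over the 7 probe sets of Gadd45g, Mdm2, Cdkn1a and Ccng1 the log2 changes lay between -0.01 and 0.26 with ET-1 and between -0.15 and 0.19 with ET-2, with a lowest adjusted p of 0.534 and 0.357 by limma. With ET-3 they lay between -0.03 and 0.32. Of the 7, 6 were above 0 in each comparison, but with ET-2 5 of these turned below 0 when arrays were centred on their medians.

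Cdkn1a was read by 2 probe sets that disagreed. The brighter one read 831.0, 1631 and 2936 with ET-1, 771.5, 1345 and 2861 with ET-2, and 879.5, 1361 and 3211 with ET-3, against 970.2, 1317 and 3184 in untreated cells, and its log2 changes were -0.01, -0.15 and -0.03. The dimmer one read 281.1, 338.1 and 834.3 with ET-1, 266.9, 196.9 and 909.0 with ET-2, and 334.5, 266.8 and 1011 with ET-3, against 172.0, 259.2 and 1044 in untreated cells. Its log2 changes were 0.26, 0.01 and 0.32, with an SE of 0.20, and their sign depended on the replicate number. In replicate 1 the differences with ET-1, ET-2 and ET-3 were 0.71, 0.63 and 0.96 and in replicate 3 -0.32, -0.20 and -0.05, while replicate 2 was higher with ET-1 and ET-3 and lower with ET-2. Both probe sets overlapped across all 4 groups.

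The Mdm2 probe sets also overlapped between groups. For the brightest the signal was 1349.7, 1886 and 2738 with ET-1, 1386, 1691 and 2801 with ET-2, and 1397, 1792 and 2843 with ET-3, against 1278, 1750.5 and 2688 in untreated cells. Its log2 changes were 0.07, 0.04 and 0.08, and those of the second 0.10, 0.08 and 0.10. The third had changes of 0.13, 0.07 and 0.25 with an SE of 0.20, and no more than 91.8 in any array of replicates 1 and 2. Ccng1 read 4888, 6214 and 10809.8 with ET-1, 4897, 6092 and 10959 with ET-2, and 5053, 5835 and 9777 with ET-3, against 5126, 5791 and 9523 in untreated cells, with changes of 0.07, 0.07 and 0.01 ± 0.06 (SE). For these genes the spread between replicate numbers was wider than any difference between groups.

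**Figure D3:**
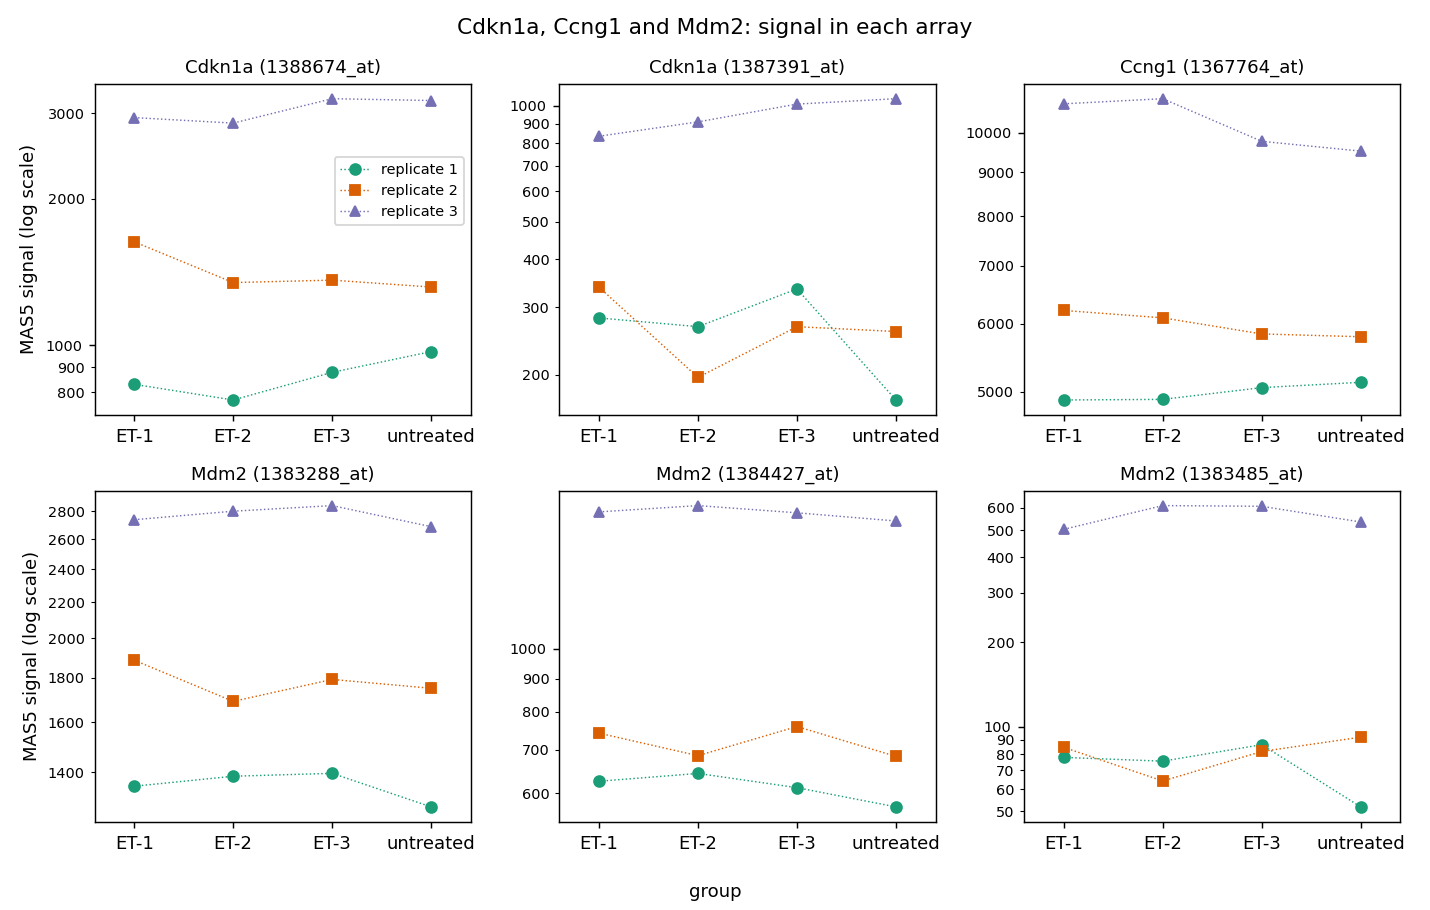
MAS5 signal on a log axis for the probe sets of Cdkn1a, Ccng1 and Mdm2 in the ET-1, ET-2, ET-3 and untreated arrays. Points are arrays, and dotted lines join arrays of 1 replicate number. Replicate 3 is the top line in every panel, in untreated cells as well as with each endothelin.

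That spread had a common direction, which was noticed after the values were seen. The dimmest Mdm2 probe set passed the filter on low signal only through replicate 3 and is left out of the counts, which cover the probe sets that also reached the filter on replicates 1 and 2 alone (15111 in all). Replicate 3 stood above replicates 1 and 2 in all 4 groups for each of the 5 remaining probe sets of Mdm2, Cdkn1a and Ccng1, as did 19.9% of the 15111. For 4 of the 5 it was at least 1.5-fold above both in every group (3.63% of the 15111) and for 2 at least 2-fold (1.27%). Arrays of 1 number may come from 1 culture, which the labels do not state, so the 4 arrays of replicate 3 are not independent and no test was made. The SD values below are over the 4 groups.

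For the brighter Cdkn1a probe set the 4 arrays of replicate 3 ran from 2861 to 3211, those of replicate 2 from 1317 to 1631 and those of replicate 1 from 771.5 to 970.2. The log2 difference of replicate 3 from the mean of the other two was 1.47 ± 0.09, or 2.77-fold, and it was 1.87 ± 0.37 for the dimmer one. Ccng1 differed by 0.91 ± 0.10, with 9523 to 10959 in replicate 3, 5791 to 6214 in replicate 2 and 4888 to 5126 in replicate 1. The Mdm2 probe sets differed by 0.84 ± 0.04, 1.29 ± 0.04 and 2.90 ± 0.21 in order of brightness. The last of these, left out above, read 503.7 to 611.7 in replicate 3.

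Gadd45a also had replicate 3 highest in all 4 groups, but by a smaller difference of 0.18 ± 0.05 from the other two. This turned to -0.11 when arrays were centred on their medians. Gadd45b (-0.12 ± 0.17) and Gadd45g (-0.04 ± 0.21) did not have replicate 3 highest in all 4 groups. With median centring the 5 counted probe sets of Mdm2, Cdkn1a and Ccng1 kept differences of 0.54 to 1.58, and 2 instead of 4 were at least 1.5-fold above both other numbers in every group.

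Of 30 listed further p53 targets 15 could be tested and 14 also reached the filter on replicates 1 and 2 alone. Of the 14, 6 had replicate 3 highest in all 4 groups, against 19.9% of the 15111 probe sets. The 6, named after their values were seen, were Ercc5, a repair nuclease (0.80 ± 0.42 on the log2 scale), Pidd1 (0.78 ± 0.12), Phlda3, an inhibitor of Akt (0.68 ± 0.14), Aen, an apoptotic nuclease (0.62 ± 0.12), Plk2 (0.29 ± 0.04) and Sesn2 (0.29 ± 0.06). Rprm and Triap1 were lowest in replicate 3 in all 4 groups, at -0.52 ± 0.14 and -0.23 ± 0.11, as were 19.6% of the 15111. The median of the 14 was 0.14, against -0.015 over the 15111, and 0 of the 14 were at least 1.5-fold above both other numbers in every group. The target left out was Gdf15, a stress cytokine, which passed the filter only through replicate 3: it read 667.1 to 754.4 there, 174.7 to 216.2 in replicate 2 and 72.0 to 110.6 in replicate 1.

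Other measures differed by replicate number too. Ddit3, a stress transcription factor, was 1.89-fold higher in replicate 3, at 2082 to 2127, against 1228 to 1398 in replicate 2 and 894.6 to 1029.6 in replicate 1. It was named after its values were seen. Over the 16 tested transcription factors of its list the median was -0.28, and Nfya differed by more, 1.98-fold (0.98 ± 0.35). Atf4 stood at -0.002 and Atf3 at -0.40, lowest in replicate 3 in all 4 groups. Of the 16, 3 were highest and 2 lowest in replicate 3 in all 4 groups, against 19.9% and 19.6% of the 15111. The median of the same difference was 0.38 over the 14 retinal ganglion cell markers, -1.25 over 8 fibroblast, pericyte and smooth muscle markers and -0.88 over 7 markers of proliferating cells. Replicate 3 was highest in all 4 groups for 8, 1 and 0 of these markers and lowest for 0, 2 and 0. In the last 2 lists it was replicate 1 that stood apart. The sum of 8 proliferation markers was 6478, 1497 and 1425 in replicates 1 to 3 with ET-1, and 1694, 995.6 and 1055 in untreated cells. The part of these cell types in the differences of Cdkn1a, Mdm2 and Ccng1 was not tested.

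**Figure D4:**
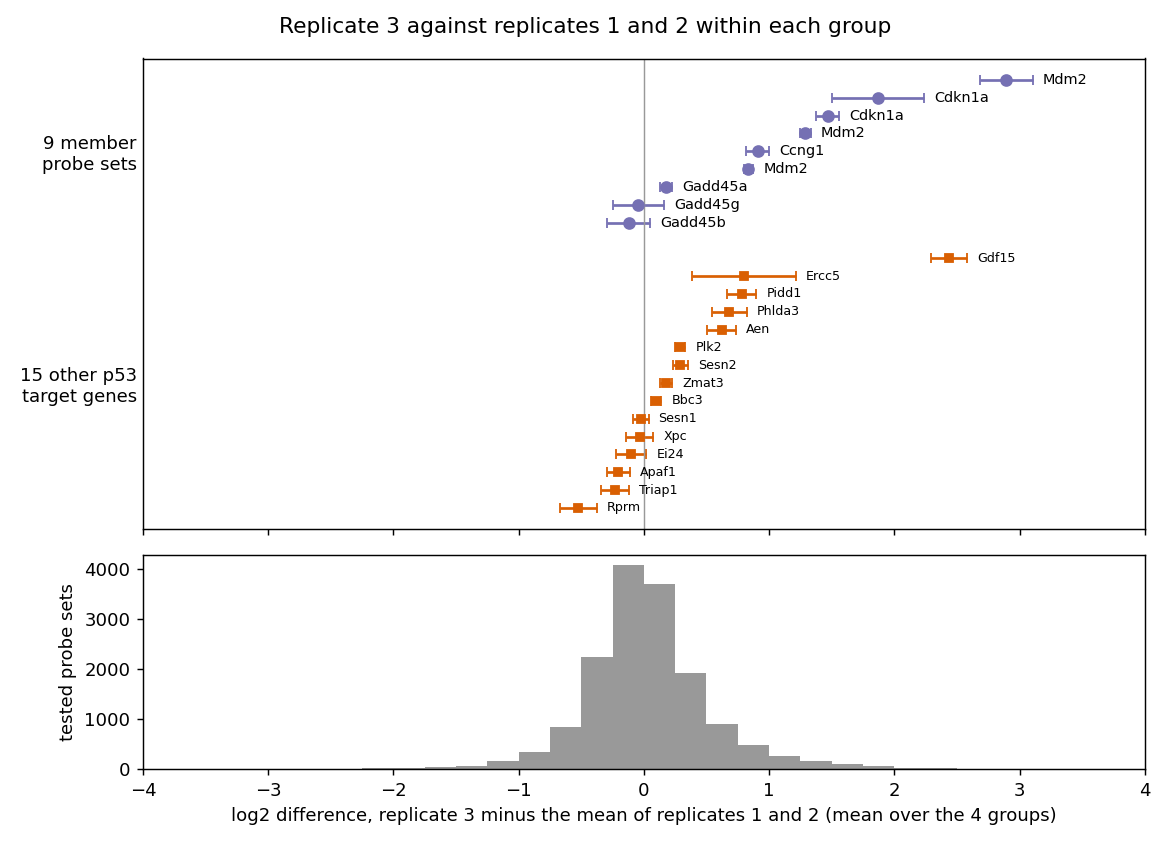
Upper panel, the log2 difference of replicate 3 from the mean of replicates 1 and 2, averaged over the 4 groups with its SD, for the 9 member probe sets (circles) and 15 other p53 targets (squares). The topmost Mdm2 point and Gdf15 passed the filter on low signal only through replicate 3. Lower panel, the same difference as a count over all 15521 tested probe sets, with its peak at 0. Mdm2, Cdkn1a and Ccng1 lie between 0.84 and 2.90 and the Gadd45 genes between -0.12 and 0.18.

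With endothelin none of the 15 further p53 targets passed, where 1.73%, 1.6% and 2.64% of all tested probe sets did with ET-1, ET-2 and ET-3, so a count of 0 is near the background (limma; their median log2 change was -0.04 with ET-1, 0.01 with ET-2 and -0.03 with ET-3, against -0.03, -0.02 and -0.03 over all tested). The smallest unadjusted p belonged to Phlda3, with changes of 0.31, 0.19 and 0.31, and Sesn1, an antioxidant sestrin, with -0.24, -0.46 and -0.18. For ET-1 and ET-2 the adjusted p was 0.103 and 0.307 for Phlda3 and 0.416 and 0.118 for Sesn1 by limma. None of the 11 tested genes for p53 and its regulators passed either. Cdkn2a, which encodes the Mdm2 inhibitor Arf and the kinase inhibitor p16, stood at 0.35, 0.37 and 0.45, and the ubiquitin ligase Rchy1 at -0.05, -0.11 and -0.10.

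Among 23 tested genes of DNA damage sensing and repair, 2 rose with ET-1, 2 with ET-2 and 1 with ET-3, and none fell; 1.51%, 1.28% and 2.13% of all tested probe sets rose and 0.219%, 0.322% and 0.509% fell. H2ax, the histone variant that is phosphorylated at DNA breaks, rose by 0.59 ± 0.12 with ET-1 and 0.57 ± 0.12 with ET-2 (adjusted p = 0.0324 and 0.0426 by limma), and by 0.56 with ET-3. Nthl1, a base excision glycosylase, rose by 0.77 ± 0.13 and 0.62 ± 0.13 with ET-1 and ET-2 (adjusted p = 0.0119 and 0.0413), and stood at 0.42 with ET-3 without passing. The median over the list was 0.07, 0.09 and 0.09. The 7 tested markers of proliferating cells stood above 0 in each of these comparisons, with a median of 1.04, 0.95 and 0.98, and their part in the H2ax and Nthl1 changes was not tested.

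Of 14 tested partners of Gadd45 proteins and kinases of the p38 and JNK pathways, none passed with ET-1 or ET-2. Of all tested probe sets 1.73% and 1.6% did. Mapkapk2, the kinase activated by p38, rose by 0.62 with ET-3 and stood at 0.43 and 0.42 with ET-1 and ET-2. Of 16 tested transcription factors known to act on Gadd45 genes, Egr1, an early growth response factor, rose by 0.80 ± 0.17 with ET-1 (adjusted p = 0.0324 by limma) and by 0.72 with ET-3, and it stood at 0.67 with ET-2. Nfkb2, a subunit of NF-kB, rose by 0.85 with ET-3, with 0.61 and 0.55 for ET-1 and ET-2. No gene of these lists fell. Among all tested probe sets 1.51%, 1.28% and 2.13% rose with ET-1, ET-2 and ET-3, and 0.219%, 0.322% and 0.509% fell. Nothing is read from the counts of these short lists.

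Among 18 tested relatives and partners of Cdkn1a and cyclin G, cyclin D1 (Ccnd1) rose with ET-1 and ET-2, by 0.84 and 0.79 (adjusted p = 0.0271 and 0.0409 by limma), and stood at 0.60 with ET-3. Cyclin A2 (Ccna2) rose by 1.25 with ET-2 (adjusted p = 0.0422) and 1.25 with ET-3 and stood at 1.18 with ET-1. Thus 1, 2 and 1 of the 18 rose with ET-1, ET-2 and ET-3, beside 1.51%, 1.28% and 2.13% of all tested probe sets. Nothing is read from these counts. Summed over 8 markers of proliferating cells, the signal was 6478, 1497 and 1425 in replicates 1 to 3 with ET-1, 6581, 1372 and 1538 with ET-2, and 6583, 1542 and 1416 with ET-3, against 1694, 995.6 and 1055 in untreated cells. The glial sum of 8 markers was likewise higher in every endothelin array than in the untreated array of its number, while Rlbp1, S100b, Aqp4 and Gfap fell below the filter. Of the 4 glial markers tested, Vim (0.69, 0.62 and 0.70) and Gja1 (1.06, 0.996 and 1.03) rose with each endothelin, and neither is particular to glia. Glul stood at -0.02, -0.07 and 0.03 and Slc1a3 at 0.09, -0.0009 and 0.14. The part of these cells in the Gadd45 and cyclin differences was not tested.

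The genes whose pattern was most like that of each Gadd45 gene were ranked by Pearson r over the 12 arrays, after the mean of each replicate number was taken off. For Gadd45a they were Rbl2 (r = 0.963), Capza2 (0.962), Sh3gl3 (0.959), Limch1 (0.923) and Nudt7 (0.914), and none of these passed with any endothelin. For Gadd45b they were Srsf9 (r = 0.953), C1h19orf33 (0.921), Zw10 (0.921), Ankrd27 (0.919) and Blvrb (0.919). C1h19orf33 rose by 1.12 with ET-1 and 1.33 with ET-3, and Srsf9 by 0.39 with ET-3. Between Gadd45a and Gadd45b the same r was -0.62, over arrays that include those on which their opposite directions were chosen, so its sign is no finding. These values describe the same arrays as the comparisons above and share their scaling.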

How the data were processed

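Each array is represented by 1 deposited intensity for every probe set, which the authors made with MAS5, per the submitters' processing notes. Which release and options they chose is not stated there. The values are on a linear scale and their trimmed means nearly equal. Detection calls were not used here.

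Intensities as deposited were put on a log2 scale, without rescaling, and tested with limma 3.58.1 in R 4.3.3: 4 group means, the replicate number as a block, intensity trend and 12 arrays. Precision is limited by this small number. The block was used because arrays of the same number deviated together: all 18 pairs between groups had r from 0.684 to 0.912. Arrays of other numbers had r from -0.706 to -0.056. Deviations were taken from the mean of each group, which by itself pulls pairs of other numbers below 0. That negative range is therefore no separate ground for the block. The labels do not say what a number stands for, so p-values measure the spread between these arrays.

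Gene names are those of the platform annotation (20826 with 1 symbol, 436 with several, 9780 with none), whose symbols RefSeq did not change where it held the Entrez ID (20758). A listed gene was read by its probe set of highest mean log2 signal. The text names every probe set of the 6 genes and, of each pathway list, the genes called, or where none was called the 2 of smallest unadjusted p; the 5 most alike genes were ranked by r. The genes and lists were chosen with earlier results of these data known. The fit was tested on simulated data.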

Additional observations from a re-analysis of the deposited data

How the results depend on the processing

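The member counts with ET-1, ET-2 and ET-2 against ET-1 were 0 in every setting except 1 with ET-2 under median centring. In that setting 1218 of the 15521 probe sets were called with ET-2. With ET-3 the count of 2 was 1 with median centring, pseudocount 16 or a filter at the upper quartile, and 0 with no replicate block, quantile normalization, no filter, no intensity trend or the compared groups alone; leaving out arrays or replicate numbers gave 0 to 0. The cause was not tested. The directions of Gadd45a and Gadd45b held in all settings, but with ET-3 they follow from how the genes were chosen. The ET-1 and ET-2 comparisons share the untreated arrays with that choice. Without single replicates the log2 ratio of Gadd45b over Gadd45a kept 0.39 to 0.52 with ET-1, 0.39 to 0.45 with ET-2 and 0.65 to 0.71 with ET-3. The alternatives for replicate 3 against the other numbers were chosen after seeing the data: the count of 4 probe sets became 2 with median centring, which raises replicates 1 and 2 by construction, and Gadd45a turned to -0.11.

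Directions of changes that no fit called turned in some settings. Median centring gave Gadd45g -0.0039 with ET-1, Ccng1 -0.027, Mdm2 -0.055, -0.013 and -0.025 (brightest first) and the dimmer Cdkn1a -0.085 with ET-2, and Ccng1 -0.039 with ET-3. Quantile normalization gave the brighter Cdkn1a 0.0016 with ET-1, the third Mdm2 probe set -0.054 and the dimmer Cdkn1a -0.0073 with ET-2, and Ccng1 -0.031 with ET-3. Leaving out arrays, the dimmer Cdkn1a ran from -0.030 to 0.55 with ET-1, -0.30 to 0.22 with ET-2 and -0.0024 to 0.51 with ET-3. The brighter ran from -0.17 to 0.10 with ET-1 and -0.12 to 0.057 with ET-3, the third Mdm2 probe set from -0.11 to 0.34 with ET-1 and -0.16 to 0.37 with ET-2, Gadd45g from -0.057 to 0.14 with ET-1 and -0.0023 to 0.16 with ET-3, and Ccng1 from -0.036 to 0.060 with ET-3. The paired fit (replicate block) called 268, 249 and 410 of 15521 probe sets with ET-1, ET-2 and ET-3, and the fit with no replicate block 0 in each. Its adjusted p was 0.9999 for Gadd45a and Gadd45b with ET-1 and 0.9998 with ET-2 (limma). Gadd45a and Gadd45b have 1 probe set each, so no other probe set could replace them.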
